A study of Brassica napus with 9 samples.

Results

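Leaves of oilseed rape (*Brassica napus*) that had been sprayed with fullerol while the soil dried (D + F) were compared with leaves of well-watered plants (CK). These are 6 of the 9 RNA-seq libraries of the study, 3 per group, and the other 3, from water-sprayed plants under drought (D), entered no test. All plants were wild type, of the genotype Zhongshuang 11, grew in the same chamber with several seedlings to a pot, and were sprayed on the leaves. The third leaves were taken, as biological replicates by the study's methods, with no word on whether plants were pooled in a library. D + F plants stood at 30% of field capacity on the day of sampling and received 100 mg/L fullerol, a carbon cage that carries hydroxyl groups and dissolves in water. CK plants received enough water to stay at 80% of field capacity, and a spray of water alone. The groups thus differ in water supply and in spray, and effects of either cannot be told apart here. Expression is given as FPKM, a count of fragments made comparable between genes of other lengths and libraries of other depths. Tests covered the 49174 of 104592 genes that exceeded an FPKM of 1 in 3 or more of these 6 libraries. They ran on log2(FPKM + 1) with limma. A gene was called a differentially expressed gene (DEG) at a Benjamini-Hochberg adjusted p under 0.05. SE is the standard error of a log2 fold change. Because of the added 1, log2 fold changes of genes with few reads understate the ratio of FPKM. The tissue could not be checked against leaf markers, because the files hold identifiers without gene names and the symbols used here belong to metabolic genes.

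Leaves that lose water adjust their metabolism. Proline, made from glutamate by pyrroline-5-carboxylate synthase and broken down by proline dehydrogenase, accumulates in many plants under drought, as do raffinose and its precursor galactinol, and these small molecules help cells to hold water and protect proteins. For D + F against CK, however, the study's metabolite measurements showed proline almost unchanged, and raffinose and galactinol lower. Levels of transcripts below are thus no measure of these contents. Nitrogen is moved between glutamine and glutamate, sucrose is cleaved by invertases and sucrose synthases, and peroxidases remove hydrogen peroxide. *B. napus* holds near-identical copies of most genes on its A and C subgenomes, named by the letter and number in each identifier. Roles of the genes below are those known from *Arabidopsis* or given by the study. How reads that fit several copies were counted is not given in the sources used here, which leaves the split between close copies uncertain.

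Whole reads could be solved from the digits of the FPKM values. By these the totals behind the FPKM values were 21939148 to 26042002 read pairs per library. These are pairs assigned to genes, fewer than all pairs sequenced. On this scale 3 read pairs on 1 kilobase amount to an FPKM of 0.115 to 0.137. An FPKM above 1 was found for 47292, 47984 and 48924 genes in D + F 1 to 3, against 47759, 47806 and 48033 genes in CK 1 to 3. The groups overlapped (48067 ± 819 genes in D + F and 47866 ± 146.5 in CK, SD, n = 3 each, two-sided exact permutation p = 0.8, where 0.1 is the smallest possible). The 10 most abundant genes held 8.50%, 7.46% and 5.38% of the summed FPKM in D + F 1 to 3, against 5.3%, 4.85% and 4.001% in CK 1 to 3. On the first principal component, which held 61.2% of the variance, all D + F libraries lay between 59.2 and 101.3 and all CK libraries between -87.6 and -73.1. CK 3 stood apart from CK 1 and CK 2 on the second component (21.4% of the variance), at -89.5, against 61.1 and 11.7. D + F 1 to 3 lay at 43.7, 2.54 and -29.5 on this component. Both groups thus followed the same order by replicate number on it.

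Many expressed genes differed between the groups, in nearly equal numbers up and down. Of the 49174 genes tested, 8644 were DEGs (17.6%), 4464 up-regulated (9.08%) and 4180 down-regulated (8.5%) in D + F. The 3 libraries of D + F and the 3 of CK did not overlap for 19455 genes (39.6%), all DEGs among them, and 16541 genes had an unadjusted p under 0.05. DEGs changed by at least 2-fold on the log2(FPKM + 1) scale for 2650 rises and 2363 falls, by at least 8-fold for 193 and 108, and by at least 32-fold for 45 and 10. Up-regulated genes had a median of 16.1 FPKM in D + F, against 5.79 FPKM in CK. Down-regulated genes had a median of 3.97 FPKM in D + F, against 10.9 FPKM in CK. The median log2 fold change over all genes tested was 0.03.

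**Figure D1:**
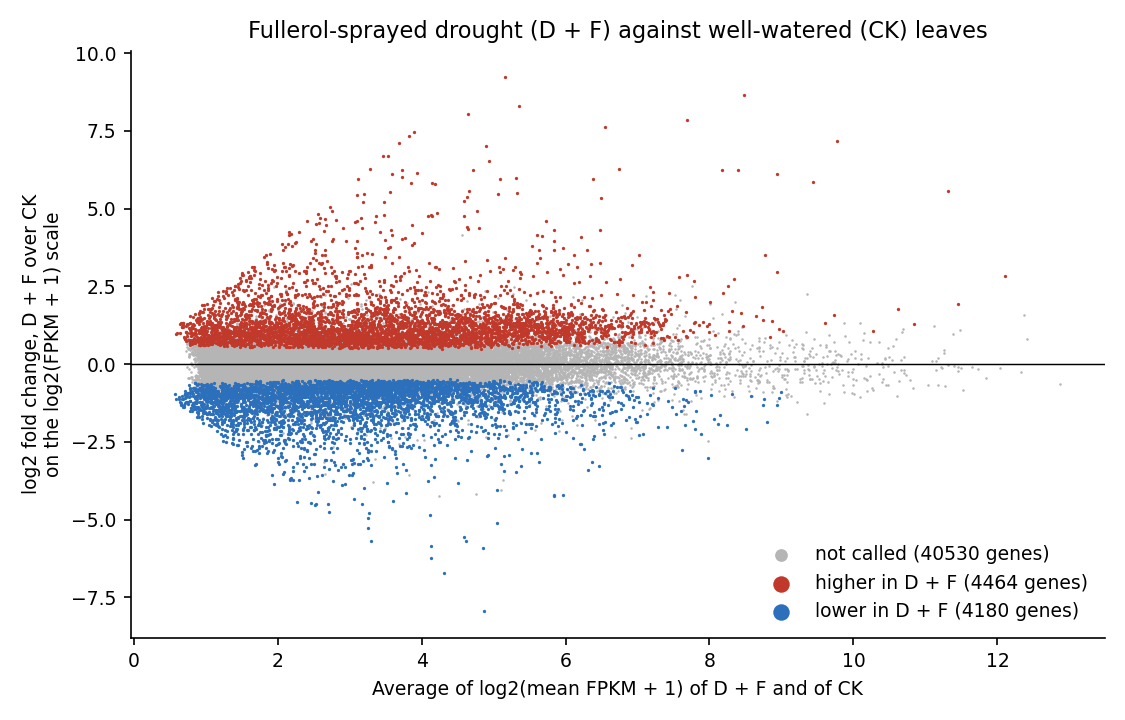
Each point is 1 of the 49174 genes tested. The x axis is the average of log2(mean FPKM + 1) of D + F and of CK, and the y axis the log2 fold change of D + F over CK, with the 4464 genes called higher in D + F in red, the 4180 called lower in blue and the other 40530 in grey. The cloud is centred close to 0 at all levels, and on this scale the changes run between -7.94 and 9.22.

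The count depended on single libraries. It was 3221 without D + F 2, 4360 without D + F 3 and 3424 without CK 2, against 7337 without D + F 1, 6817 without CK 1 and 9714 without CK 3. The D + F libraries correlated with one another at 0.942 to 0.974 over genes, which are no independent replicates. CK 3 correlated with CK 1 at 0.902 and with CK 2 at 0.941, and CK 1 with CK 2 at 0.967. The share of DEGs that were up-regulated moved less, between 48.3% without D + F 3 and 56.2% without D + F 1, around 51.6% with all 6 libraries.

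**Figure D2:**
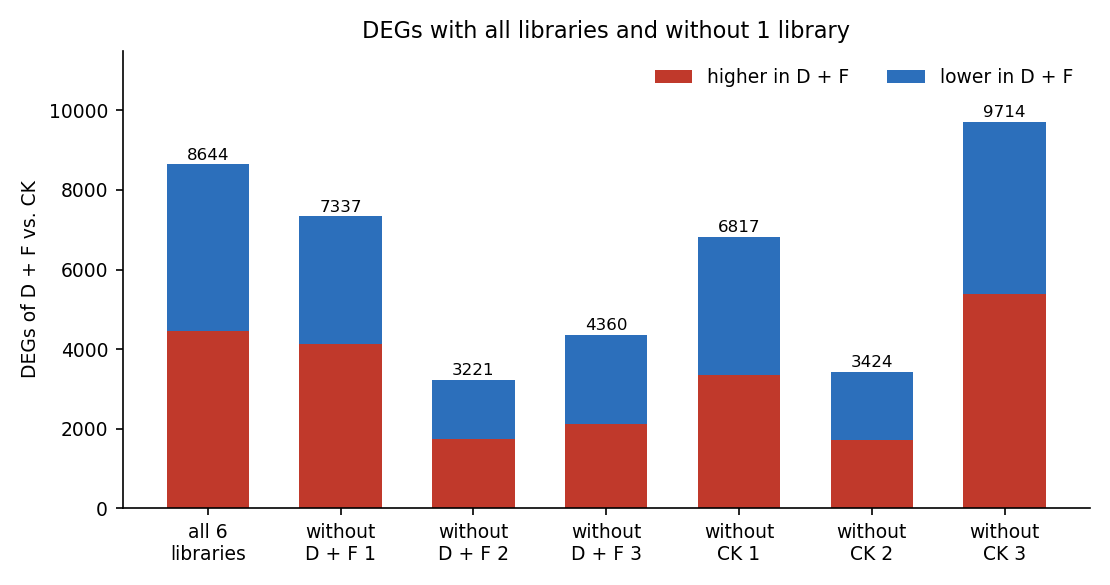
Bars give the number of DEGs (y axis) with all 6 libraries and after leaving out each library in turn (x axis), split into genes higher in D + F (red) and lower (blue). The number is 3221 without D + F 2 and 3424 without CK 2, against 8644 with all 6, while both directions stay present in similar shares.

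The calls were also counted by level class, set by the mean over all 6 libraries. Of the 3554 genes with a mean above 50 FPKM over the 6 libraries, 672 were up-regulated and 270 down-regulated (26.5% called, 71.3% of the calls up). The 14785 genes between 10 and 50 FPKM had 1679 rises and 1434 falls (21.1% called). Falls outnumbered rises among the 23902 genes between 2 and 10 FPKM, with 1936 against 1625, and among the 6933 genes under 2 FPKM, with 540 against 488. A gene that rose is moved toward a higher class by its own D + F libraries. In the same way, a gene that fell is moved up by its CK libraries. With the libraries rescaled by the median of their gene ratios (median-of-ratios scaling), 68.3% of the 1033 calls above 50 FPKM were up. Without D + F 2, 473 genes of this class were called, 77.8% of them up. Without D + F 3 it was 578 genes and 72.0%, and without CK 2 it was 444 genes and 73.9%.

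**Figure D3:**
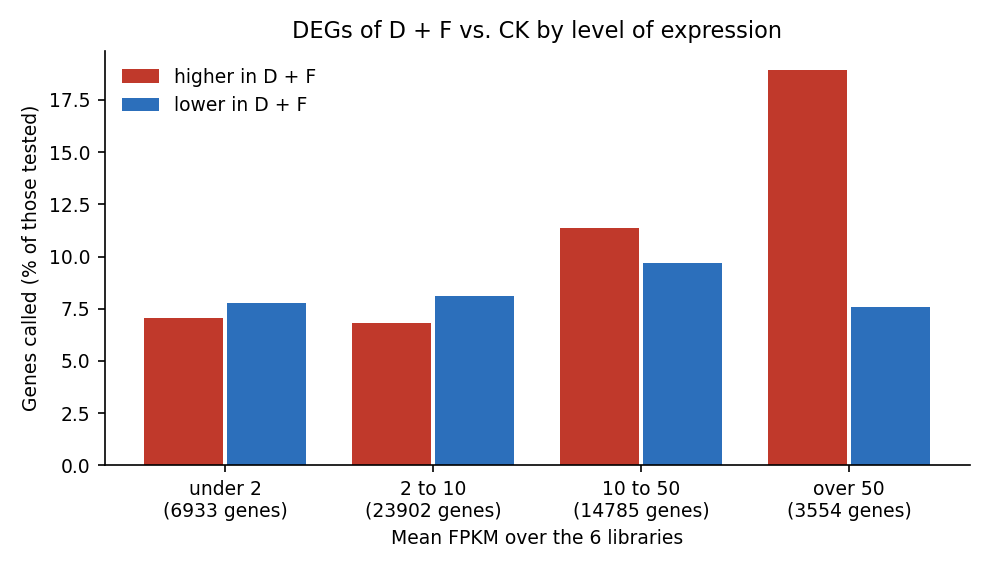
Bars give the DEGs of D + F vs. CK as a percent of the genes tested (y axis) in 4 classes of mean FPKM over the 6 libraries (x axis), higher in D + F in red and lower in blue. Both bars are of similar height up to 10 FPKM, and above 50 FPKM the red bar, for 672 of 3554 genes, stands far above the blue one, for 270.

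The study pairs 132 identifiers with symbols of enzymes of carbohydrate, amino acid and phenylpropanoid metabolism, and 117 of these passed the filter on low values. In D + F, 34 were up-regulated, 36 were down-regulated and 47 were not called, so 59.8% were DEGs, beside 17.6% of all genes tested. The study drew the identifiers from DEGs of these same libraries, so the share is a description and no independent evidence. The same holds for the counts by role below, which are to be read beside the 17.6%. Their median log2 fold change was 0.44, beside 0.03 over all genes. Fewer of them were called after leaving out single libraries, 34 without D + F 2, 44 without D + F 3 and 41 without CK 2. The 15 identifiers that did not pass the filter lay at or below an FPKM of 1 in at least 4 of the 6 libraries. Where several copies of a gene were tested, which held for 31 symbols, no symbol had copies called in opposite directions. All tested copies were called in 1 direction for 14 symbols, and 17 had at least 1 copy that was not called.

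**Figure D4:**
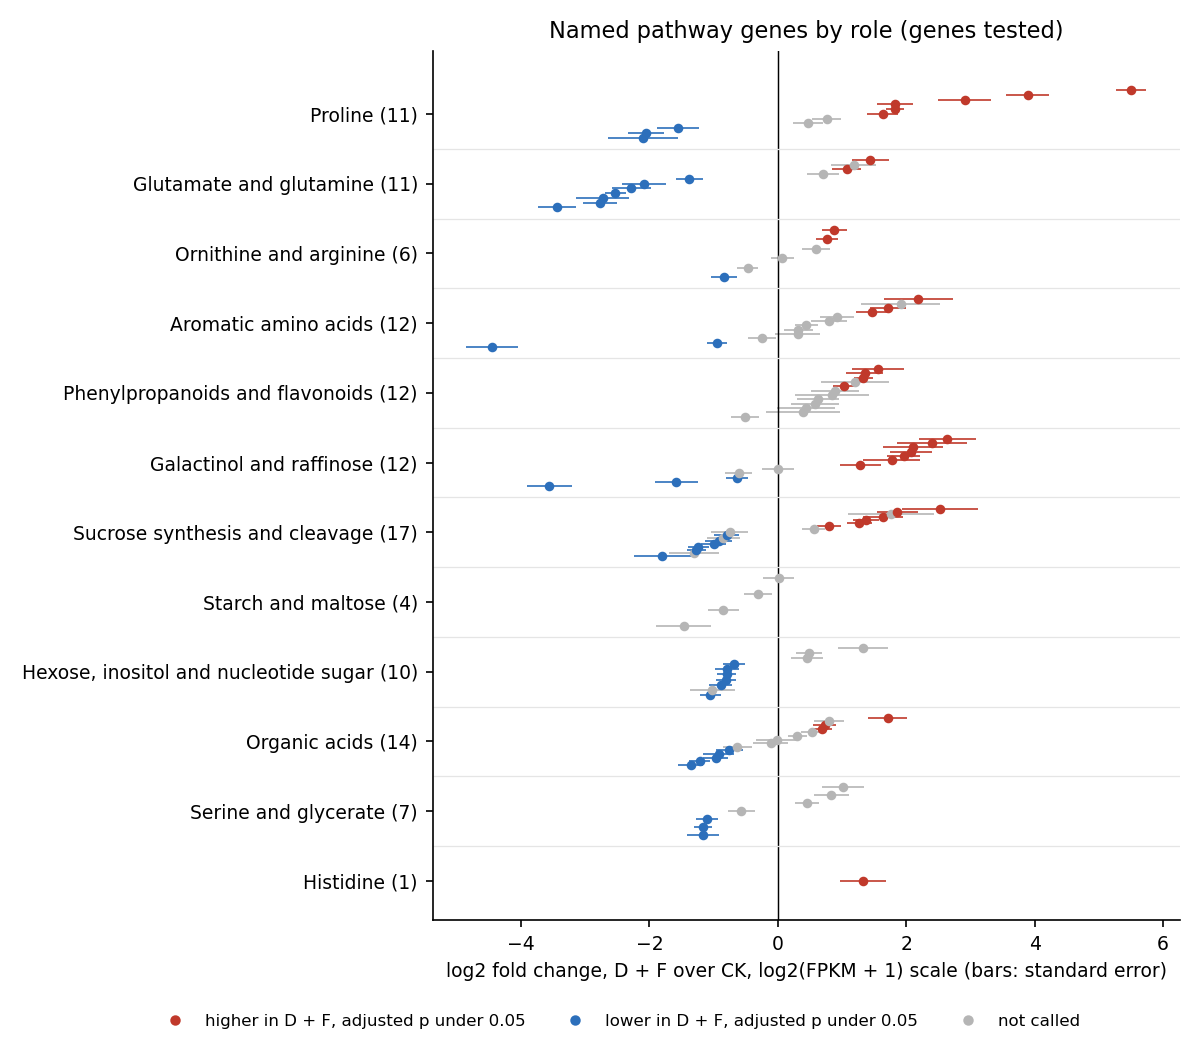
Each point is a named pathway gene among the 117 tested, grouped by role (rows, number tested in brackets). The x axis is the log2 fold change of D + F over CK on the log2(FPKM + 1) scale with its standard error, red for genes called higher in D + F, blue for lower and grey for not called. Proline genes spread from -2.1 to 5.5, glutamate and glutamine genes lie mostly below 0, and the hexose and nucleotide sugar genes that were called are all below 0.

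Genes of *P5CS1*, which leads into proline synthesis, rose, and those of *PRODH1*, the first step of proline breakdown, fell. All 4 tested copies of *P5CS1*, the pyrroline-5-carboxylate synthase that makes the proline precursor from glutamate, were up-regulated in D + F. *P5CS1* BnaC04g05620D had 208, 297 and 303 FPKM in D + F 1 to 3, against 6.25, 4.799 and 3.85 FPKM in CK 1 to 3. Every D + F library stood at least 30 times above every CK library, and on the log2(FPKM + 1) scale this was the largest change among the named pathway genes (log2 fold change 5.5, SE 0.23, limma adjusted p = 9.65e-05). *P5CS1* BnaA05g05760D had 68.3, 76.2 and 30.7 FPKM in D + F 1 to 3, against 3.4, 2.64 and 2.24 FPKM in CK 1 to 3, with D + F 3 the lowest of its group and still far above all CK libraries (log2 fold change 3.89, SE 0.34, limma adjusted p = 0.00112). *P5CS1* BnaC04g46630D had 12.01, 30.97 and 23.3 FPKM in D + F 1 to 3, against 3.16, 2.25 and 0.762 FPKM in CK 1 to 3 (log2 fold change 2.91, SE 0.41, limma adjusted p = 0.00513). The weakest copy, *P5CS1* BnaA04g22810D, had 1.53, 3.35 and 1.78 FPKM in D + F 1 to 3, against 0, 0.0196 and 0.0212 FPKM in CK 1 to 3, and its 3 CK libraries together held 2 read pairs (log2 fold change 1.63, SE 0.24, limma adjusted p = 0.00562). No CK library of this copy was above a floor of 3 read pairs. Against this floor the D + F mean is at least 36.8-fold higher, or 27.4-fold without D + F 2.

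*P5CS2*, a second isoform of the same enzyme, was not called in either copy. *P5CS2* BnaA09g35230D had 9.49, 13.3 and 6.83 FPKM in D + F 1 to 3, against 4.98, 4.98 and 5.78 FPKM in CK 1 to 3, which did not overlap (log2 fold change 0.76, SE 0.23, limma adjusted p = 0.0606). The libraries of *P5CS2* BnaC08g26550D overlapped (log2 fold change 0.47, SE 0.23, limma adjusted p = 0.199). *P5CDH*, the dehydrogenase that returns pyrroline-5-carboxylate to glutamate, rose in both copies. *P5CDH* BnaA06g22040D had 28.6, 27.2 and 28.3 FPKM in D + F 1 to 3, against 7.96, 6.72 and 7.07 FPKM in CK 1 to 3, with little spread in either group (log2 fold change 1.82, SE 0.14, limma adjusted p = 8.79e-04). *P5CDH* BnaC03g74750D had 61.2, 68.5 and 72.6 FPKM in D + F 1 to 3, against 12.4, 17.3 and 27.98 FPKM in CK 1 to 3 (log2 fold change 1.83, SE 0.28, limma adjusted p = 0.00637). *PRODH1*, the proline dehydrogenase of mitochondria, fell in all 3 copies. *PRODH1* BnaC07g26120D had 2.62, 1.48 and 0.884 FPKM in D + F 1 to 3, against 8.24, 8.46 and 12.8 FPKM in CK 1 to 3 (log2 fold change -2.05, SE 0.28, limma adjusted p = 0.00463). *PRODH1* BnaC02g38230D had 0.674, 0.128 and 0.321 FPKM in D + F 1 to 3, against 2.38, 2.903 and 14.01 FPKM in CK 1 to 3, with CK 3 far above the other libraries (log2 fold change -2.1, SE 0.54, limma adjusted p = 0.0355). *PRODH1* BnaA06g39660D had 4.93, 1.65 and 2.901 FPKM in D + F 1 to 3, against 11.1, 7.596 and 14.2 FPKM in CK 1 to 3 (log2 fold change -1.56, SE 0.33, limma adjusted p = 0.0193). *PRODH1* BnaC02g38230D lost its call without D + F 1, D + F 2, D + F 3 or CK 2 (adjusted p = 0.0593 to 0.118) or with no filter on low values (0.0667) or in voom on solved read counts (0.0545). *PRODH1* BnaA06g39660D did so without D + F 2 or D + F 3 (adjusted p = 0.0643 to 0.0648). In all, 6 of the 11 proline genes tested rose, 3 fell and 2 were not called, a median log2 fold change of 1.63. The D libraries, which entered no test, had a mean of 478 FPKM for *P5CS1* BnaC04g05620D, 41.9 for *P5CDH* BnaA06g22040D and 0.594 for *PRODH1* BnaC07g26120D.

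Most cytosolic glutamine synthetase genes fell, and they were among the most abundant of the named pathway genes in well-watered leaves. Glutamine synthetase joins ammonium to glutamate, and the cytosolic forms serve in moving nitrogen within the plant. All 4 copies of *GLN1-4* and both of *GLN1-1* were down-regulated in D + F. *GLN1-4* BnaA10g17910D had 5.85, 11.1 and 12.6 FPKM in D + F 1 to 3, against 85.5, 132 and 124 FPKM in CK 1 to 3 (log2 fold change -3.44, SE 0.3, limma adjusted p = 0.00112). *GLN1-4* BnaA02g03140D had 73.4, 59.02 and 89.7 FPKM in D + F 1 to 3, against 398, 487 and 666 FPKM in CK 1 to 3, with no overlap (log2 fold change -2.77, SE 0.27, limma adjusted p = 0.00171). *GLN1-4* BnaC02g06690D had 194, 126 and 197 FPKM in D + F 1 to 3, against 502, 708 and 1055 FPKM in CK 1 to 3 (log2 fold change -2.09, SE 0.34, limma adjusted p = 0.00793). The groups of all these copies lay far apart. *GLN1-4* BnaC09g41340D had 114, 91.8 and 124 FPKM in D + F 1 to 3, against 245, 310.1 and 304 FPKM in CK 1 to 3 (log2 fold change -1.38, SE 0.21, limma adjusted p = 0.00675). *GLN1-1* BnaA04g08160D had 14.5, 28.6 and 46.5 FPKM in D + F 1 to 3, against 136, 190.3 and 242 FPKM in CK 1 to 3, with D + F 3 the nearest to CK (log2 fold change -2.73, SE 0.41, limma adjusted p = 0.00622). *GLN1-1* BnaC04g30250D had 44.2, 45.3 and 87.5 FPKM in D + F 1 to 3, against 221, 306 and 313 FPKM in CK 1 to 3, again with D + F 3 the highest of its group (log2 fold change -2.28, SE 0.31, limma adjusted p = 0.00455).

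The tested copy of another isoform went the other way. *GLN1-3* BnaA05g22420D, the tested copy of *GLN1-3*, had 29.5, 43.3 and 37.2 FPKM in D + F 1 to 3, against 13.9, 15.1 and 22.1 FPKM in CK 1 to 3 and was up-regulated (log2 fold change 1.07, SE 0.23, limma adjusted p = 0.0194). It lost this call without D + F 2, D + F 3, CK 1 or CK 2 (adjusted p = 0.0516 to 0.0852). The other copy, *GLN1-3* BnaCnng57900D, did not pass the filter on low values and lay lower in D + F. It had 0.0412, 0.144 and 0.246 FPKM in D + F 1 to 3, against 0.596, 0.515 and 0.514 FPKM in CK 1 to 3. These are 11 read pairs in D + F and 40 in CK. *GSH3*, which the study describes as a probable glutamate dehydrogenase, fell. *GSH3* BnaC01g40390D had 0.638, 0.342 and 0.742 FPKM in D + F 1 to 3, against 7.95, 7.27 and 8.92 FPKM in CK 1 to 3, with all D + F libraries below 1 FPKM (log2 fold change -2.53, SE 0.17, limma adjusted p = 5.78e-04). *GLT1*, a glutamate synthase that returns the nitrogen of glutamine to glutamate, was up-regulated in 1 of 3 copies. *GLT1* BnaC03g15020D had 27.7, 45.1 and 50.3 FPKM in D + F 1 to 3, against 10.7, 13.03 and 19.9 FPKM in CK 1 to 3 (log2 fold change 1.44, SE 0.29, limma adjusted p = 0.0176). This call was lost without D + F 2, D + F 3 or CK 2 (adjusted p = 0.0622 to 0.07502). The libraries of *GLT1* BnaA03g12250D overlapped narrowly, with 11.03, 21.4 and 23.9 FPKM in D + F 1 to 3, against 4.998, 6.78 and 11.2 FPKM in CK 1 to 3 (log2 fold change 1.18, SE 0.35, limma adjusted p = 0.0566). *GLT1* BnaC03g15030D had 11.6, 16.1 and 10.2 FPKM in the D + F libraries and 5.73, 6.28 and 10.3 FPKM in the CK libraries and was not called either (log2 fold change 0.7, limma adjusted p = 0.0976). In all, 2 of the 11 genes tested rose, 7 fell and 2 were not called, and the median log2 fold change was -2.09. The mean of the D libraries was 10.9 FPKM for *GLN1-4* BnaA02g03140D and 15.8 FPKM for *GLN1-4* BnaC02g06690D.

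Genes of galactinol and raffinose metabolism split by isoform. Galactinol synthase makes galactinol from UDP-galactose and inositol, and raffinose synthase joins its galactose to sucrose. Both copies of *GOLS2* rose and both of *GOLS3* fell in D + F. *GOLS2* BnaCnng63310D had 2.38, 11.7 and 7.47 FPKM in D + F 1 to 3, against 0, 0.1699 and 0.275 FPKM in CK 1 to 3, with D + F 1 the lowest of its group (log2 fold change 2.64, SE 0.44, limma adjusted p = 0.00881). *GOLS2* BnaA09g15290D had 1.77, 7.77 and 8.97 FPKM in D + F 1 to 3, against 0.213, 0.6798 and 0.505 FPKM in CK 1 to 3, again with D + F 1 lowest (log2 fold change 2.1, SE 0.47, limma adjusted p = 0.0225). *GOLS3* BnaA09g48480D had 1.59, 1.04 and 1.19 FPKM in D + F 1 to 3, against 16.6, 21.5 and 47.3 FPKM in CK 1 to 3 (log2 fold change -3.56, SE 0.35, limma adjusted p = 0.00185). The other copy, *GOLS3* BnaC08g50010D, had 0.0442, 0 and 0.04396 FPKM in D + F 1 to 3, against 1.02, 1.74 and 4.22 FPKM in CK 1 to 3, where the 3 D + F libraries together held 2 read pairs, none above 3 (log2 fold change -1.58, SE 0.34, limma adjusted p = 0.0197). Against this floor the fall from the CK mean is at least 18.4-fold, or 10.95-fold without CK 3.

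Both copies of *RFS2*, listed with raffinose metabolism, and the 3 tested copies of *RFS6* were up-regulated. *RFS2* BnaC08g28500D had 19.99, 37.6 and 38.5 FPKM in D + F 1 to 3, against 4.11, 7.38 and 9.12 FPKM in CK 1 to 3 (log2 fold change 2.07, SE 0.33, limma adjusted p = 0.00775). *RFS2* BnaA09g36810D had 10.97, 20.2 and 17.1 FPKM in D + F 1 to 3, against 2.303, 3.78 and 3.99 FPKM in CK 1 to 3 (log2 fold change 1.96, SE 0.26, limma adjusted p = 0.00448). The D + F libraries of both copies stood above all CK libraries, with D + F 1 the lowest of them. *RFS6* BnaA10g15160D had 6.23, 24.2 and 23.2 FPKM in D + F 1 to 3, against 0.773, 3.25 and 3.02 FPKM in CK 1 to 3 (log2 fold change 2.4, limma adjusted p = 0.0241), *RFS6* BnaA02g04780D changed by 1.77 (adjusted p = 0.0339) and *RFS6* BnaC09g37530D by 1.28 (adjusted p = 0.0318) on the log2 scale in limma's test. *RFS5* did not rise in either copy. *RFS5* BnaA04g10260D had 4.41, 4.804 and 4.096 FPKM in D + F 1 to 3, against 6.64, 6.69 and 9.26 FPKM in CK 1 to 3 and was down-regulated (log2 fold change -0.64, SE 0.17, limma adjusted p = 0.0439). The libraries of *RFS5* BnaC04g56100D overlapped, with 2.93, 4.89 and 4.77 FPKM in D + F 1 to 3, against 3.86, 3.11 and 5.74 FPKM in CK 1 to 3 (limma adjusted p = 0.992). Several calls were lost when 1 library was left out, in fits that also have fewer residual degrees of freedom. *GOLS2* BnaA09g15290D lost its call without D + F 2, D + F 3, CK 1 or CK 2 (adjusted p = 0.0532 to 0.0881). *GOLS3* BnaC08g50010D did so without D + F 2, D + F 3 or CK 2 (adjusted p = 0.0616 to 0.0745). *RFS6* BnaA10g15160D did so without D + F 2, D + F 3, CK 1 or CK 2 (adjusted p = 0.0517 to 0.09104). *RFS6* BnaA02g04780D did so without D + F 2, D + F 3, CK 1 or CK 2 (adjusted p = 0.0541 to 0.119) or with no filter on low values (0.0621). *RFS6* BnaC09g37530D did so without D + F 2, D + F 3, CK 1 or CK 3 (adjusted p = 0.0588 to 0.117) or with no filter on low values (0.0627). *RFS5* BnaA04g10260D was called in none of the 6 fits that left out 1 library (adjusted p = 0.0596 to 0.12). Of the 12 genes tested, 7 rose, 3 fell and 2 were not called, 83.3% called with a median log2 fold change of 1.52. With a library left out, the number called was 4 without D + F 2 or D + F 3 and 5 without CK 1 or CK 2.

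**Figure D5:**
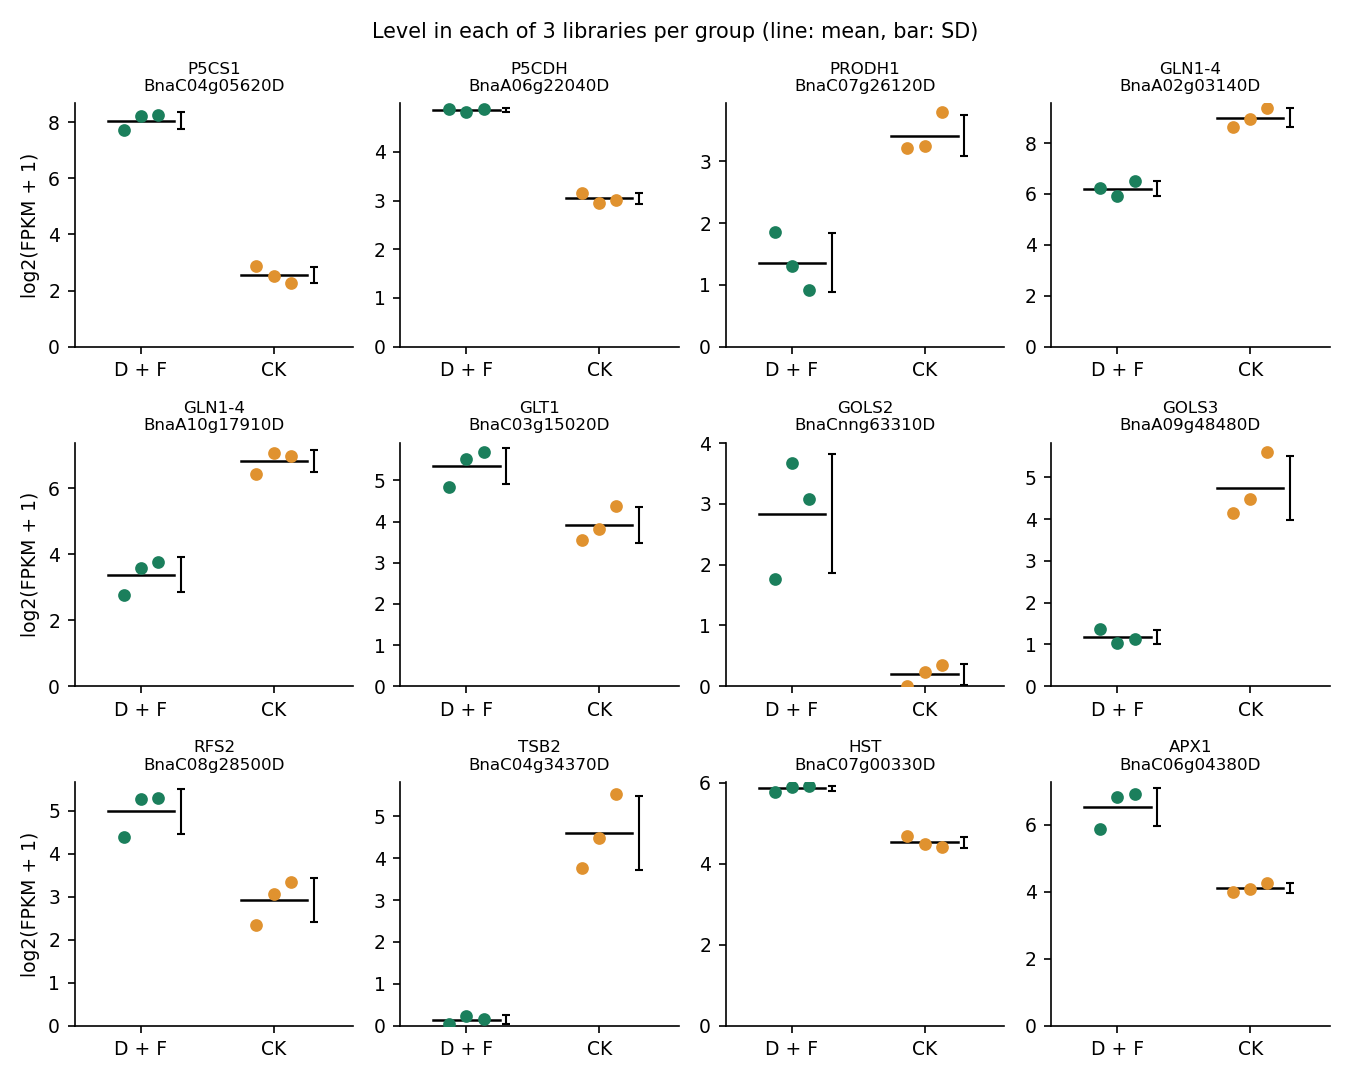
Each panel shows 1 named gene, with log2(FPKM + 1) on the y axis starting at 0. Green points are D + F 1 to 3, orange points CK 1 to 3, the line is the group mean and the bar its SD (n = 3). In all 12 panels the groups do not overlap, as in each DEG, and *GOLS2* shows the widest spread within D + F, with D + F 1 at 2.38 FPKM and D + F 2 at 11.7 FPKM.

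Genes of sucrose cleavage also split by isoform. *BFRUCT4*, a vacuolar invertase, rose in 2 of 3 copies, whereas *CWINV1* and *CWINV3*, listed as cell wall invertases, fell. *BFRUCT4* BnaC08g41390D had 6.87, 29.5 and 17.4 FPKM in D + F 1 to 3, against 3.65, 2.73 and 0.357 FPKM in CK 1 to 3, with CK 3 the lowest library (log2 fold change 2.52, SE 0.59, limma adjusted p = 0.0276). *BFRUCT4* BnaA06g08310D had 12.1, 13.8 and 9.83 FPKM in D + F 1 to 3, against 4.41, 4.05 and 1.51 FPKM in CK 1 to 3 (log2 fold change 1.64, SE 0.31, limma adjusted p = 0.0127). *BFRUCT4* BnaA09g47290D, whose libraries overlapped, was not called (log2 fold change 1.76, limma adjusted p = 0.113). *CWINV1* BnaC06g07120D had 3.05, 3.2 and 3.99 FPKM in D + F 1 to 3, against 9.46, 9.55 and 9.85 FPKM in CK 1 to 3, with CK libraries that differed little (log2 fold change -1.27, SE 0.15, limma adjusted p = 0.00332). *CWINV3* BnaA06g00510D had 3.96, 3.82 and 4.97 FPKM in D + F 1 to 3, against 12.4, 10.6 and 10.98 FPKM in CK 1 to 3 (log2 fold change -1.24, SE 0.16, limma adjusted p = 0.00386). Another member of the cell wall group, *CWINV5* BnaC05g39510D, was up-regulated at a low level, with 2.202, 2.05 and 1.23 FPKM in D + F 1 to 3, against 0.585, 0.609 and 0.629 FPKM in CK 1 to 3 (log2 fold change 0.8, limma adjusted p = 0.0309). *GAA*, an alpha-glucosidase, rose. BnaA03g03490D had 15.3, 12.9 and 11.8 FPKM in D + F 1 to 3, against 6.16, 4.72 and 4.08 FPKM in CK 1 to 3 (log2 fold change 1.27, SE 0.19, limma adjusted p = 0.00571). *GAA2* BnaCnng72110D was not called, with 28.2, 14.8 and 9.38 FPKM in the D + F libraries and 33.7, 34.05 and 57.2 FPKM in the CK libraries (log2 fold change -1.3, limma adjusted p = 0.0582).

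Among sucrose synthases, which cleave sucrose to UDP-glucose and fructose, *SUS3* rose. BnaA09g00710D had 5.81, 6.87 and 5.304 FPKM in D + F 1 to 3, against 0.191, 0.953 and 2.02 FPKM in CK 1 to 3 (log2 fold change 1.86, SE 0.32, limma adjusted p = 0.00989). Both tested copies of *SUS5* and the copy of *SUS6* fell, all with under 4 FPKM in every library. *SUS5* BnaCnng74430D had 0.328, 0.179 and 0.448 FPKM in D + F 1 to 3, against 2.02, 1.38 and 1.53 FPKM in CK 1 to 3 (log2 fold change -1.0, limma adjusted p = 0.0123). With a library left out, the call of *SUS5* BnaA05g12940D held in 2 of 6 fits (adjusted p up to 0.131) and that of *SUS6* BnaC06g34330D in 2 of 6 (up to 0.0913). Sucrose-phosphate synthase, which makes the precursor of sucrose, changed in both directions. *SPS1* fell. BnaA02g04800D had 7.27, 8.83 and 13.9 FPKM in D + F 1 to 3, against 21.6, 29.4 and 73.7 FPKM in CK 1 to 3, with CK 3 well above the other CK libraries (log2 fold change -1.8, SE 0.44, limma adjusted p = 0.0311). *SPS2* rose in both identifiers that the study pairs with it. *SPS2* BnaA06g27590D had 2.57, 3.45 and 3.39 FPKM in D + F 1 to 3, against 0.411, 0.468 and 0.949 FPKM in CK 1 to 3 (log2 fold change 1.37, SE 0.2, limma adjusted p = 0.00547). BnaA03g03230D had 1.46, 3.32 and 4.73 FPKM in D + F 1 to 3, against 0.556, 0.622 and 1.07 FPKM in CK 1 to 3 (log2 fold change 1.18, limma adjusted p = 0.04102). *SPS4* BnaC02g29300D was not called, with 29.4, 19.1 and 12.7 FPKM in the D + F libraries and 29.6, 36.2 and 33.8 FPKM in the CK libraries (log2 fold change -0.75, limma adjusted p = 0.113). *BFRUCT4* BnaC08g41390D lost its call without D + F 2, D + F 3 or CK 2 (adjusted p = 0.0707 to 0.0934) or with no filter on low values (0.0541). *BFRUCT4* BnaA06g08310D did so without D + F 2 (adjusted p = 0.0589). *CWINV5* BnaC05g39510D did so without D + F 1, D + F 2, CK 1 or CK 2 (adjusted p = 0.0651 to 0.126). *SPS1* BnaA02g04800D did so without D + F 1, D + F 2, D + F 3 or CK 2 (adjusted p = 0.0553 to 0.105) or with no filter on low values (0.0571). *SPS2* BnaA03g03230D did so without D + F 2, D + F 3, CK 1 or CK 2 (adjusted p = 0.0896 to 0.136) or with no filter on low values (0.0729). *SUS5* BnaCnng74430D did so without D + F 2 (adjusted p = 0.06297). Of the 17 genes of sucrose synthesis and cleavage tested, 6 rose, 6 fell and 5 were not called, with a median log2 fold change of -0.75. With a library left out, the number called was 5 without D + F 2 and 7 without CK 2.

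None of the 4 genes of starch and maltose metabolism was called by limma over all genes, while 2 had an unadjusted p under 0.05 and 1 was called by voom, limma's test for counts, on the solved reads. *BAM3*, a chloroplast beta-amylase that releases maltose, was not called. BnaC07g34180D had 115, 82.9 and 138 FPKM in D + F 1 to 3, against 190.1, 254 and 588 FPKM in CK 1 to 3, with CK 3 far above the rest (log2 fold change -1.47, SE 0.43, limma adjusted p = 0.0533). *DPE2* uses maltose in the cytosol. BnaC04g01600D had 85.96, 67.9 and 77.8 FPKM in D + F 1 to 3, against 121, 117 and 192 FPKM in CK 1 to 3 (log2 fold change -0.85, SE 0.24, limma adjusted p = 0.0502). Both passed the threshold after median-of-ratios scaling, with an adjusted p of 0.0377 for *BAM3* and 0.0318 for *DPE2*. The libraries of *BAM2* BnaA09g51890D overlapped (log2 fold change 0.01, limma adjusted p = 0.978), as did those of *SBE2.1* BnaC04g08890D, a starch branching enzyme (log2 fold change -0.31, limma adjusted p = 0.373).

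Among genes of hexose, inositol and nucleotide sugar metabolism, each of the 6 called fell and 4 of the 10 tested were not called. *HXK1*, a hexokinase that phosphorylates glucose and also acts as a glucose sensor, fell in both copies. *HXK1* BnaA09g10080D had 16.6, 14.4 and 14.2 FPKM in D + F 1 to 3, against 27.7, 25.1 and 27.99 FPKM in CK 1 to 3 (log2 fold change -0.8, SE 0.15, limma adjusted p = 0.01197). *HXK1* BnaC09g10170D had 14.8, 10.1 and 11.1 FPKM in D + F 1 to 3, against 24.7, 19.9 and 19.3 FPKM in CK 1 to 3 (log2 fold change -0.79, SE 0.19, limma adjusted p = 0.0299). *MUR2*, a fucosyltransferase of the cell wall polymer xyloglucan, fell in both copies. *MUR2* BnaC07g32110D had 21.3, 26.8 and 26.8 FPKM in D + F 1 to 3, against 41.6, 43.6 and 47.9 FPKM in CK 1 to 3, with no overlap (log2 fold change -0.81, SE 0.16, limma adjusted p = 0.0171). *MUR2* BnaA03g41220D changed by -0.89 on the log2 scale (limma adjusted p = 0.0177). *CYT1*, which makes GDP-mannose, fell in 2 of 4 copies. BnaC04g34080D had 1.14, 1.03 and 1.03 FPKM in D + F 1 to 3, against 3.85, 3.02 and 3.002 FPKM in CK 1 to 3 (log2 fold change -1.05, SE 0.16, limma adjusted p = 0.00666). The other was *CYT1* BnaC04g46620D, with a log2 fold change of -0.68 that was called in none of the 6 fits without 1 library. *MIOX1* oxidizes inositol. BnaAnng22250D had 3.24, 2.75 and 5.64 FPKM in D + F 1 to 3, against 0.414, 0.412 and 2.38 FPKM in CK 1 to 3, not called (log2 fold change 1.32, SE 0.39, limma adjusted p = 0.0539). It was called without CK 3 and after median-of-ratios scaling (adjusted p = 0.0419). *HXK1* BnaA09g10080D lost its call without D + F 2 (adjusted p = 0.0689). *HXK1* BnaC09g10170D did so without D + F 2, D + F 3, CK 1 or CK 2 (adjusted p = 0.0777 to 0.125). *MUR2* BnaC07g32110D did so without D + F 2 or CK 2 (adjusted p = 0.0646 to 0.071). *MUR2* BnaA03g41220D did so without D + F 2 or CK 2 (adjusted p = 0.0619 to 0.0798). The number called was 1 without D + F 2 and 2 without CK 2. Their median log2 fold change was -0.79.

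*ACO3*, an aconitase that converts citrate to isocitrate, fell in both copies, and *CICDH*, the cytosolic isocitrate dehydrogenase, fell as well. *CICDH* BnaC06g27300D had 13.8, 10.8 and 12.1 FPKM in D + F 1 to 3, against 28.2, 40.6 and 30.6 FPKM in CK 1 to 3 (log2 fold change -1.36, SE 0.19, limma adjusted p = 0.00491). *ACO3* BnaAnng22230D had 0.147, 0.0514 and 0.132 FPKM in D + F 1 to 3, against 1.52, 1.398 and 1.83 FPKM in CK 1 to 3 (log2 fold change -1.22, SE 0.17, limma adjusted p = 0.00506). *ACO3* BnaA08g14220D had 0.778, 0.861 and 0.745 FPKM in D + F 1 to 3, against 2.34, 1.89 and 3.48 FPKM in CK 1 to 3 (log2 fold change -0.97, limma adjusted p = 0.0189). *ACO1* was not called. BnaC03g62580D had 36.2, 40.2 and 35.9 FPKM in the D + F libraries and 45.1, 57.3 and 77.2 FPKM in the CK libraries, which did not overlap (log2 fold change -0.63, limma adjusted p = 0.0877). *ACLB-2*, a subunit of the citrate lyase that makes acetyl-CoA in the cytosol, rose. BnaC07g27210D had 3.06, 4.56 and 6.17 FPKM in D + F 1 to 3, against 1.44, 0.318 and 0.429 FPKM in CK 1 to 3 (log2 fold change 1.71, SE 0.3, limma adjusted p = 0.0106).

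*MDH1*, a malate dehydrogenase, rose in 2 of 6 copies, both abundant. *MDH1* BnaA03g09800D had 136, 126 and 139 FPKM in D + F 1 to 3, against 71.7, 92.9 and 77.5 FPKM in CK 1 to 3 (log2 fold change 0.73, SE 0.18, limma adjusted p = 0.0328). *MDH1* BnaA08g01250D had 39.3, 38.3 and 40.7 FPKM in D + F 1 to 3, against 28.1, 23.7 and 21.2 FPKM in CK 1 to 3 (log2 fold change 0.68, SE 0.16, limma adjusted p = 0.02801). Among the 4 copies not called, *MDH1* BnaC07g14970D had 16.9, 17.2 and 28.4 FPKM in the D + F libraries and 11.4, 9.78 and 12.7 FPKM in the CK libraries, without overlap (log2 fold change 0.8, limma adjusted p = 0.0519). Both copies of *NADP-ME1*, a malic enzyme, stayed below the filter in these 6 libraries, with at most 1.14 FPKM in a D + F library and 0.182 FPKM in a CK library. Several of these calls were close to the threshold. *ACO3* BnaA08g14220D lost its call without D + F 2 or D + F 3 (adjusted p = 0.0628 to 0.0708). *MDH1* BnaA08g01250D did so without D + F 1, D + F 2, D + F 3 or CK 2 (adjusted p = 0.0588 to 0.1098) or after quantile normalization (0.0575). *MDH1* BnaA03g09800D was called only without CK 3 among the 6 fits that left out 1 library, and lost its call after quantile normalization too (adjusted p = 0.0649). Of the 14 genes tested, 3 rose, 5 fell and 6 were not called, with a median log2 fold change of -0.06. With a library left out, the number called was 3 without D + F 2 or D + F 3 and 4 without CK 2.

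Tryptophan synthase genes moved in opposite directions by isoform. *TSB1* and *TSB2* encode its beta subunit, which makes tryptophan from indole and serine. *TSB2* BnaC04g34370D had 0.0292, 0.179 and 0.116 FPKM in D + F 1 to 3, against 12.7, 21.4 and 45.3 FPKM in CK 1 to 3, on the log2(FPKM + 1) scale the largest fall among the named pathway genes (log2 fold change -4.45, SE 0.4, limma adjusted p = 0.00129). Its 3 D + F libraries together held 12 read pairs, against 2706 in the CK libraries. Of the 5 tested copies of *TSB1*, 3 rose and none fell. *TSB1* BnaA08g25210D had 1.65, 4.06 and 4.404 FPKM in D + F 1 to 3, against 0.293, 0.2504 and 0.271 FPKM in CK 1 to 3 (log2 fold change 1.71, SE 0.28, limma adjusted p = 0.00853). *TSB1* BnaA08g25220D had 2.39, 5.103 and 3.804 FPKM in D + F 1 to 3, against 0.646, 0.827 and 0.596 FPKM in CK 1 to 3 (log2 fold change 1.46, SE 0.24, limma adjusted p = 0.00792). *TSB1* BnaA09g09550D had 1.42, 8.86 and 10.1 FPKM in D + F 1 to 3, against 0.607, 0.445 and 0.206 FPKM in CK 1 to 3, with D + F 1 close to the CK libraries (log2 fold change 2.19, SE 0.54, limma adjusted p = 0.0325). It lost its call without D + F 2, D + F 3, CK 1, CK 2 or CK 3 (adjusted p = 0.0563 to 0.116) or with no filter on low values (0.0624) or in voom on solved read counts (0.0758). Its neighbour by number, *TSB1* BnaA09g09540D, had 1.03, 9.52 and 9.14 FPKM in the D + F libraries and 0.624, 0.996 and 0.269 FPKM in the CK libraries and was not called, with D + F 1 again near CK (log2 fold change 1.91, limma adjusted p = 0.0692). *ADT5*, an arogenate dehydratase that makes phenylalanine, fell in 1 of 2 copies. BnaCnng34620D had 4.84, 5.59 and 5.396 FPKM in D + F 1 to 3, against 9.805, 11.7 and 11.9 FPKM in CK 1 to 3 (log2 fold change -0.95, SE 0.15, limma adjusted p = 0.00731). *CORI3*, an aminotransferase-like gene, was abundant in both groups with overlapping libraries. BnaC01g15060D had 112, 148 and 116 FPKM in D + F 1 to 3, against 63.02, 95.8 and 165 FPKM in CK 1 to 3 (log2 fold change 0.31, limma adjusted p = 0.564). Of the 12 genes tested, 3 rose, 2 fell and 7 were not called, with a median log2 fold change of 0.62.

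Of the 12 phenylpropanoid and flavonoid genes, all tested, 4 rose, none fell and 8 were not called, with a median log2 fold change of 0.87. *HST*, a transferase that leads to lignin and chlorogenic acid, rose in 2 of 3 copies. *HST* BnaC07g00330D had 53.9, 58.4 and 59.3 FPKM in D + F 1 to 3, against 24.7, 21.6 and 20.3 FPKM in CK 1 to 3 (log2 fold change 1.33, SE 0.15, limma adjusted p = 0.00313). *HST* BnaA07g00390D had 51.6, 57.9 and 59.7 FPKM in D + F 1 to 3, against 31.8, 26.7 and 23.5 FPKM in CK 1 to 3 (log2 fold change 1.03, SE 0.17, limma adjusted p = 0.00884). *PAL1* and *PAL2*, phenylalanine ammonia-lyases that open the pathway, spread widely among the CK libraries. *PAL1* BnaA04g21230D had 21.8, 20.6 and 19.2 FPKM in D + F 1 to 3, against 14.1, 4.01 and 4.12 FPKM in CK 1 to 3, with CK 1 nearest to D + F (log2 fold change 1.56, SE 0.41, limma adjusted p = 0.0379). *PAL2* BnaC08g24360D had 6.79, 9.73 and 10.04 FPKM in D + F 1 to 3, against 4.68, 2.603 and 1.74 FPKM in CK 1 to 3 (log2 fold change 1.35, SE 0.29, limma adjusted p = 0.0199). *PAL1* BnaC04g08190D had 10.8, 9.74 and 7.37 FPKM in the D + F libraries and 10, 2.69 and 1.16 FPKM in the CK libraries, where CK 1 lay within the D + F libraries (log2 fold change 1.2, limma adjusted p = 0.162). *CYP75B1*, the flavonoid hydroxylase, was not called in either copy. BnaC09g47980D had 1.55, 2.104 and 1.93 FPKM in D + F 1 to 3, against 0.315, 0.509 and 3.68 FPKM in CK 1 to 3, with CK 3 above all D + F libraries (log2 fold change 0.44, limma adjusted p = 0.536). *HST* BnaA07g00390D lost its call without D + F 2 (adjusted p = 0.0504). *PAL1* BnaA04g21230D did so without D + F 1, D + F 2, D + F 3, CK 2 or CK 3 (adjusted p = 0.0789 to 0.128) or with no filter on low values (0.0674). *PAL2* BnaC08g24360D did so without D + F 2, D + F 3 or CK 2 (adjusted p = 0.07195 to 0.0821). Of the 12, the number called was 1 without D + F 2, 2 without D + F 3 or CK 2 and 8 without CK 1.

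In ornithine and arginine genes the called log2 fold changes lay between -0.84 and 0.88. *Acy1b*, which the study lists as an aminoacylase of ornithine synthesis, rose in 1 of 2 copies. BnaCnng71090D had 92.9, 75.05 and 64.8 FPKM in D + F 1 to 3, against 44.5, 39.04 and 40.6 FPKM in CK 1 to 3 (log2 fold change 0.88, SE 0.19, limma adjusted p = 0.0197). *ArgE*, an acetylornithine deacetylase, fell. BnaC07g34860D had 13.4, 13.5 and 12.8 FPKM in D + F 1 to 3, against 18.9, 23.9 and 32.02 FPKM in CK 1 to 3 (log2 fold change -0.84, SE 0.2, limma adjusted p = 0.0306). *OTC*, the carbamoyltransferase that takes ornithine on toward arginine, rose in 1 of 2 copies. *OTC* BnaC06g22470D had 36.9, 28.6 and 29.2 FPKM in D + F 1 to 3, against 18.3, 16.4 and 19.9 FPKM in CK 1 to 3 (log2 fold change 0.76, SE 0.17, limma adjusted p = 0.0227). The libraries of *OTC* BnaA07g21750D overlapped at 1 pair, D + F 3 and CK 3 (log2 fold change 0.59, limma adjusted p = 0.109). *Acy1b* BnaCnng71090D lost its call without D + F 2 or CK 2 (adjusted p = 0.0806 to 0.0889) or after quantile normalization (0.0525). *ArgE* BnaC07g34860D did so without D + F 1, D + F 2, D + F 3 or CK 2 (adjusted p = 0.06404 to 0.104). *OTC* BnaC06g22470D did so without D + F 1, D + F 2, D + F 3, CK 1 or CK 2 (adjusted p = 0.0521 to 0.101). Of the 6 genes tested, 2 rose, 1 fell and 3 were not called. With a library left out, the number called was 0 without D + F 2 or CK 2 and 1 without D + F 1 or D + F 3.

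In serine and glycerate metabolism 3 genes fell, none rose and 4 were not called, of 7 tested. *SDC*, the serine decarboxylase that gives ethanolamine, fell. BnaAnng06510D had 5.04, 5.25 and 4.95 FPKM in D + F 1 to 3, against 12.8, 11.98 and 13.1 FPKM in CK 1 to 3, with little spread (log2 fold change -1.16, SE 0.14, limma adjusted p = 0.00319). *HPR2*, a hydroxypyruvate reductase of the cytosol, fell. BnaA07g19710D had 32.9, 30.4 and 38.97 FPKM in D + F 1 to 3, against 71.2, 67.6 and 83.2 FPKM in CK 1 to 3 (log2 fold change -1.1, SE 0.17, limma adjusted p = 0.007402). *HPR*, its peroxisomal counterpart in photorespiration, was not called. BnaA07g24840D had 232, 182 and 171 FPKM in D + F 1 to 3, against 132, 127 and 75.6 FPKM in CK 1 to 3 (log2 fold change 0.83, limma adjusted p = 0.0747). *PGDH2*, a phosphoglycerate dehydrogenase that opens serine synthesis, fell in 1 of 2 copies. BnaC08g17520D had 20.4, 18.2 and 25.6 FPKM in D + F 1 to 3, against 35.6, 49.2 and 66.5 FPKM in CK 1 to 3 (log2 fold change -1.17, SE 0.25, limma adjusted p = 0.0209). This call was lost without D + F 1, D + F 2 or CK 2 (adjusted p = 0.0508 to 0.0909). *PGDH1* was called in neither copy. BnaC03g77040D had 17.9, 19.4 and 25.7 FPKM in the D + F libraries and 6.97, 7.68 and 17.3 FPKM in the CK libraries, without overlap (log2 fold change 1.01, limma adjusted p = 0.0737). *HDH*, the histidinol dehydrogenase that completes histidine synthesis, was up-regulated. BnaCnng13210D had 6.35, 17.4 and 16.4 FPKM in D + F 1 to 3, against 3.19, 4.89 and 5.15 FPKM in CK 1 to 3 (log2 fold change 1.32, SE 0.36, limma adjusted p = 0.0456). It lost this call without D + F 2, D + F 3, CK 1, CK 2 or CK 3 (adjusted p = 0.0602 to 0.151) or with no filter on low values (0.0796) or in voom on solved read counts (0.0692). The other histidine gene, *HISN1A* BnaC04g18340D, did not pass the filter, with 1.58, 0.881 and 0.393 FPKM in the D + F libraries and 0.381, 0.276 and 0.261 FPKM in the CK libraries. Of the 7 serine and glycerate genes, 5 were called without CK 3.

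The study pairs 7 further identifiers with symbols, among them *SPS2* above. The antioxidant genes rose. *APX1*, a cytosolic ascorbate peroxidase, had 57.8, 112 and 119.5 FPKM in D + F 1 to 3, against 14.96, 15.8 and 18.2 FPKM in CK 1 to 3 in BnaC06g04380D, with D + F 1 the lowest of its group (log2 fold change 2.43, SE 0.29, limma adjusted p = 0.00327). *GPX1*, a peroxidase of the glutathione peroxidase family, had 117, 168 and 103 FPKM in D + F 1 to 3, against 42.2, 73.4 and 32.8 FPKM in CK 1 to 3 in BnaC08g33590D (log2 fold change 1.41, SE 0.33, limma adjusted p = 0.0261). It lost its call without D + F 1, D + F 2, D + F 3 or CK 1 (adjusted p = 0.05099 to 0.0999) or after quantile normalization (0.0527). In the cell wall, *GAE6*, a glucuronate epimerase of pectin synthesis, fell, with 25.6, 36.6 and 37.3 FPKM in D + F 1 to 3, against 82.6, 82.9 and 135 FPKM in CK 1 to 3 in BnaA01g23480D (log2 fold change -1.55, SE 0.26, limma adjusted p = 0.00864). *BXL5*, a beta-xylosidase, rose, with 2.64, 5.698 and 7.23 FPKM in D + F 1 to 3, against 0.9104, 0.5897 and 0.343 FPKM in CK 1 to 3 in BnaAnng39260D (log2 fold change 1.87, SE 0.32, limma adjusted p = 0.00887). The libraries of *PME3*, a pectin methylesterase, overlapped, with 22.4, 15.8 and 11.8 FPKM in D + F 1 to 3, against 15.8, 18.8 and 9.17 FPKM in CK 1 to 3 in BnaC01g37010D (log2 fold change 0.19, limma adjusted p = 0.707). Those of *GAPC*, the cytosolic glyceraldehyde-3-phosphate dehydrogenase, overlapped too, with 11.1, 10.96 and 7.36 FPKM in D + F 1 to 3, against 10.9, 12.1 and 6.96 FPKM in CK 1 to 3 in BnaA09g46260D (log2 fold change -0.01, limma adjusted p = 0.9802).

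On the log2(FPKM + 1) scale, the largest changes lay in genes without a name in the sources used here. Among DEGs with at least 10 FPKM in the higher group, BnaC03g29650D and BnaA03g09530D rose most on this scale. BnaA03g09530D had 8880.3, 7820.4 and 3994 FPKM in D + F 1 to 3, against 30.9, 8.37 and 12.97 FPKM in CK 1 to 3 (log2 fold change 8.66, SE 0.5, limma adjusted p = 3.46e-04). BnaC03g29650D had 206, 876 and 2057 FPKM in D + F 1 to 3, against 0.204, 0.204 and 0.2202 FPKM in CK 1 to 3 (log2 fold change 9.22, SE 0.72, limma adjusted p = 8.79e-04). Its CK libraries held 3 read pairs in all. Its D + F mean is thus at least 1667-fold above the floor of 3 read pairs per library, or 862-fold without D + F 3. The D + F libraries of this gene spread widely, with D + F 1 lowest. The largest falls on this scale were those of BnaA09g49730D and BnaC04g41400D. BnaA09g49730D had 1.9, 0.256 and 0.582 FPKM in D + F 1 to 3, against 368, 455 and 509 FPKM in CK 1 to 3 (log2 fold change -7.94, SE 0.31, limma adjusted p = 9.65e-05). BnaC04g41400D had 0.304, 2.4 and 0.303 FPKM in D + F 1 to 3, against 271, 131 and 187 FPKM in CK 1 to 3 (log2 fold change -6.72, SE 0.42, limma adjusted p = 4.41e-04). For this gene, D + F 2 stood above the other D + F libraries. All of these calls held in each fit without 1 library.

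Some genes stood clearly above the floor of 3 read pairs in 1 group and at or under it in the other. Such genes pass the filter on low values mainly through the group where they are high, so their counts and bounds depend on the filter. In 122 of the 4464 up-regulated genes no CK library was above 3 read pairs while every D + F library was. In 19 of these 122 all CK libraries stood at 0. The lower bound of the rise had a median of 11.3 and reached 1667 for BnaC03g29650D, or 862 without D + F 3. BnaC01g21280D had 87.98, 239 and 294 FPKM in D + F 1 to 3, against 0.0562, 0 and 0.121 FPKM in CK 1 to 3 (log2 fold change 7.45, SE 0.41, limma adjusted p = 3.33e-04). Its D + F mean was at least 1198-fold higher, or 946-fold without D + F 3. In 119 of the 122 genes at least 1 D library was above the floor. The other way, 86 of the 4180 down-regulated genes had no D + F library above 3 read pairs and every CK library above. In 13 of these 86 all D + F libraries stood at 0. The bound of the fall had a median of 9.13, and it was largest for BnaC04g33320D. Set against its CK mean, this gene was at least 167-fold lower in D + F, or 126-fold without CK 1. BnaC04g33320D had 0.414, 0.241 and 0.412 FPKM in D + F 1 to 3, against 98.4, 83.3 and 16.1 FPKM in CK 1 to 3 (log2 fold change -5.27, SE 0.61, limma adjusted p = 0.0031). BnaC03g33880D had 0.103, 0.1803 and 0.205 FPKM in D + F 1 to 3, against 17.5, 39.9 and 25.04 FPKM in CK 1 to 3. Set against its CK mean it was at least 93.3-fold lower, or 72.2-fold without CK 2. In 59 of the 86 genes every D library was at the floor as well. This criterion is stricter than the one used for the rises, so these counts of D cannot be set against each other. Each bound sets the mean of the higher group against 3 read pairs at the mean depth of the other group. Single libraries can therefore lie below it. The floors cover counting error at most, and the bounds without 1 library were added after seeing the data.

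The study also lists DEGs by KEGG pathway for each of its 3 comparisons, and the lists held complete here were counted. For the lists it drew from D + F vs. CK itself, a call is what the list was made of, and the counts show direction only. Glycerolipid metabolism had 5 rises and 18 falls among 25 genes, the number called being 13 without D + F 2. The citrate cycle had 3 rises and 18 falls among 22 genes, with calls for 8 without D + F 2 and 13 without CK 2. Glycerophospholipid metabolism had 7 rises and 17 falls among 26 genes, with calls for 10 without D + F 2 and 15 without CK 2. Inositol phosphate metabolism had 4 rises and 11 falls among 19 genes, with calls for 6 without D + F 2 and 7 without D + F 3 or CK 2. The pentose phosphate pathway had 11 rises and 4 falls among 17 genes, with calls for 5 without D + F 2 or D + F 3 and 8 without CK 2. After median-of-ratios scaling this pathway had 8 rises and 5 falls. Fructose and mannose metabolism had 11 rises and 10 falls among 22 genes, with calls for 8 without D + F 2. Glycine, serine and threonine metabolism had 12 rises and 11 falls among 27 genes, with calls for 14 without D + F 2.

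Lists drawn from D vs. CK share the CK libraries with this comparison. For nitrogen metabolism, 3 rose, 16 fell and 6 were not called among 25 tested. For ascorbate and aldarate metabolism, 0 rose, 12 fell and 13 were not called among 25 tested (calls were 3 without D + F 2 or D + F 3 and 4 without CK 2). For porphyrin and chlorophyll metabolism, 5 rose, 0 fell and 20 were not called among 25 tested (calls were 2 without D + F 2, 3 without D + F 1 or D + F 3 and 1 without CK 2). For aminoacyl-tRNA biosynthesis, 9 rose, 0 fell and 13 were not called among 22 tested (calls were 3 without D + F 2 or CK 2, 5 without D + F 1 and 4 without CK 1). Over all genes tested, 17.6% were called, 9.08% up and 8.5% down. The share called was 76% in the nitrogen list, 48% in the ascorbate list, 40.9% in the aminoacyl-tRNA list and 20% in the porphyrin list, which is near the share over all genes. Lists drawn from D + F vs. D share the D + F libraries. In flavonoid biosynthesis 0 of 17 genes were called by limma, as by voom (0), while 5 were called without CK 1 and 4 without CK 3. Of the 17, 3 had an unadjusted p under 0.05, and the median log2 fold change was 0.44. For phenylpropanoid biosynthesis, 7 rose, 1 fell and 14 were not called among 22 tested (calls were 1 without D + F 2, 2 without D + F 3 or CK 2, 5 without D + F 1 and 13 without CK 1). For glutathione metabolism, 3 rose, 0 fell and 10 were not called among 13 tested (calls were 0 without D + F 2, 1 without D + F 3 and 5 without CK 3). The share called differed widely between lists of this kind. It was 80% of 15 genes in arginine and proline metabolism and 78.6% of 14 in amino sugar and nucleotide sugar metabolism. Carbon metabolism had 38.5% of 13 called, and cysteine and methionine metabolism 33.3% of 12. The share was 36.4% in the phenylpropanoid list and 23.1% in the glutathione list.

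DEGs were spread over both subgenomes. Of the genes tested, 18.4% of 22013 on the A subgenome and 17.3% of 24562 on the C subgenome were called, with 50.6% and 52.4% of the calls up. Of 2491 loci outside the *Bna* gene models, 13.1% were called. Single chromosomes ranged between 15.0% called on C01 and 19.6% on A04, and the share of calls that were up between 44.2% on A02 and 58.4% on C06.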

How the data were processed

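RNA-seq libraries of leaves, 3 of D + F and 3 of CK, were analysed from the FPKM values that the authors deposited. Per the study's methods, the authors used TopHat 2.0.12 with a Bowtie 2.2.3 index of the species' genome for alignment and HTSeq 0.6.1 for counting, then turned the result into FPKM. Since FPKM are no counts, limma 3.58.1 (R 4.3.3, trended variances) was run on log2(FPKM + 1) of the 49174 genes that exceeded an FPKM of 1 in 3 or more of the 6 libraries, with Benjamini-Hochberg adjustment over all of them at 0.05. Whole reads were solved from the FPKM digits (589222 of 589231 values above 0 came out whole within 0.01 read), which gave the depth, the floors and a voom alternative that called 8736 genes. Tables were made with Python 3.11.15 and pandas 2.3.3. The fit was checked on simulated counts with 1 fixed spread for all genes and no outlying library. It called 17 of 63 genes with a 2-fold change and 72 of 72 with a 4-fold change, and 10 of 47072 unchanged genes. Genes not called may thus include 2-fold changes.

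Genes named in the text are those the study pairs with symbols, the largest called first within a role and then uncalled ones, the 2 largest rises and 2 largest falls among unnamed DEGs with at least 10 FPKM in the higher group, and 2 genes at the floor in each group. The comparison and the lists were chosen with earlier results of these data known. KEGG lists were used where held complete. Alternatives were another pseudocount, filter, scaling, model, minimum change or replicate block, and leaving out each library. Values of 1 gene named by the study are not reported here.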

Additional observations from a re-analysis of the deposited data

How the results depend on the processing

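Both directions and the near balance of rises and falls held in all alternatives, with 48.3% to 56.2% of DEGs up-regulated around 51.6%. The number of DEGs, 8644, was 7411 without the filter on low values, 6036 at a mean FPKM of at least 5, 8352 with a pseudocount of 0.1, 9943 with median-of-ratios scaling, 9889 after quantile normalization, 8562 without the variance trend, 8736 with voom on solved reads, 11486 in a fit on all 9 libraries and 5013 at a minimum change of 2-fold. Leaving out 1 library gave 3221 (without D + F 2) to 9714 DEGs (without CK 3), and 34 to 71 of the 117 named pathway genes, of which 70 were called with all libraries. Fewer libraries and residual degrees of freedom enter such fits. D + F and CK share replicate numbers, and the sources used here do not say whether same-numbered libraries were handled together. The deviations of same-numbered libraries correlated at 0.314, 0.054 and 0.279, and each D + F library correlated best with its own number. Those of D + F 1 and CK 3 correlated at -0.285, and those of D + F 3 and CK 1 at -0.282. The main fit left the numbers out, and what they stand for was not tested. With the replicate number as a block, limma called 11169 genes and 76 named pathway genes, and 11262 and 77 with median-of-ratios scaling added (chosen after seeing the data).

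Of 102 single genes followed, 78 were called. The minimum change of 2-fold was not applied to these single genes. Of the 78, 44 kept their call in every other alternative that tested them and in every fit without 1 library. All 78 kept it with a pseudocount of 0.1, with median-of-ratios scaling and without the trend, 77 in the fit on all 9 libraries, 77 with the replicate block, 75 with voom, 74 after quantile normalization and 68 without the filter. Between 44 (without D + F 2) and 72 (without CK 3) kept it when 1 library was left out. The genes whose log2 fold change turned sign were not called to begin with, and the cause was not tested. *BAM2* BnaA09g51890D (0.01) was at -0.01 with median-of-ratios scaling, -0.01 with the block added to it and -0.09 after quantile normalization, and at -0.14 to 0.25 without 1 library. *RFS5* BnaC04g56100D was at 0.01 with voom, and at -0.16 to 0.19 without 1 library. Without 1 library, *CORI3* BnaC01g15060D ran between -0.02 and 0.67, *PME3* BnaC01g37010D between -0.09 and 0.40 and *GAPC* BnaA09g46260D between -0.23 and 0.16. The difference in the number of genes above an FPKM of 1, D + F minus CK, was 200.7 per library, 217 at a threshold of 0.5 and -0.3333 at a threshold of 5, and without 1 library (added after seeing the data) it ran between -228 (without D + F 3) and 588.

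Depth limits weakly expressed genes. An FPKM under 0.115 to 0.137 on 1 kilobase is fewer than 3 read pairs.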
